A study of Mus musculus with 24 samples.

Results

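The genes of the MHC class II antigen presentation machinery were followed across all libraries of a mouse aorta RNA-seq study. They were chosen by gene name and are 10 of the 37606 genes in the deposited count table: the chains H2-Aa, H2-Ab1 and H2-Eb1, the invariant chain Cd74, the peptide exchange factor genes H2-DMa, H2-DMb1 and H2-DMb2, the genes H2-Oa and H2-Ob of its inhibitor, and the regulator Ciita. RNA came from homogenates of whole aortas of WT mice that had been infused with angiotensin II (Ang II), the peptide that drives the renin-angiotensin response and acutely raises blood pressure, or with vehicle (sham infusion). Minipumps delivered the agent for 2 weeks, and aortas were taken 2, 4 or 6 months after that. Each of the 3 times had an Ang II and a sham group, which gave 6 groups with 4 libraries apiece. The labels give neither strain, sex and age of the mice nor whether a library stands for 1 animal or a pool, so every p-value below rests on the spread between libraries alone, which may be technical.

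MHC class II molecules are pairs of an alpha and a beta chain that show peptides from engulfed proteins to CD4+ T cells. Dendritic cells, macrophages and B cells make them without outside induction, and other cells can do so after interferon gamma. In the endoplasmic reticulum the invariant chain Cd74 fills the peptide groove and guides the complex to endosomes, where proteases cut it down and H2-DM exchanges the remaining fragment for other peptides. H2-DO, found mainly in B cells, holds H2-DM back. Transcription of the whole set runs through Ciita, a coactivator that binds no DNA itself but docks on factors sitting at short promoter elements called the X box and the Y box.

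The promoter sequences are shown because these elements are searched for there. RefSeq promoter windows (GRCm38.p6) were found for 7 of the 10 members. The 140 bases before the RefSeq start are printed for the 6 genes in which at least 1 of 3 motifs was found. Capitals mark TGATTGG (the core of a Y box), AACNNATGA (an X box form) and TGACGTCA (a palindrome of the cyclic AMP response element type). The motifs were picked after these sequences had been seen, and both strands of the 250 bases before the start were searched.
H2-Aa (chr17:34287824-34287963, minus strand): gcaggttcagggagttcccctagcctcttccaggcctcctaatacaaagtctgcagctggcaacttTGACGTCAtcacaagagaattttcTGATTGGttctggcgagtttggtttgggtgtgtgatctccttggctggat
H2-Eb1 (chr17:34305727-34305866, plus strand): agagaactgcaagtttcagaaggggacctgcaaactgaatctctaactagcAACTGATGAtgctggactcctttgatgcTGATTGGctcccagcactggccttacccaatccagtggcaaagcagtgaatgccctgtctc
H2-DMb1 (chr17:34153051-34153190, plus strand): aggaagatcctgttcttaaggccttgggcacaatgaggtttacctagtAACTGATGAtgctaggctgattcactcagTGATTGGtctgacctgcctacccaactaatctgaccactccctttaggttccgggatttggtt
H2-DMb2 (chr17:34145109-34145248, plus strand): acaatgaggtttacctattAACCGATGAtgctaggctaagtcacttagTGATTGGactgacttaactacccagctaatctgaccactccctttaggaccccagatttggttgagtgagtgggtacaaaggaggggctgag
H2-Oa (chr17:34092239-34092378, plus strand): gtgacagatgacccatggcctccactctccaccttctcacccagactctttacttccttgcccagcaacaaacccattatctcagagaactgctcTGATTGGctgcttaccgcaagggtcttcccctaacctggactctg
H2-Ob (chr17:34238765-34238904, plus strand): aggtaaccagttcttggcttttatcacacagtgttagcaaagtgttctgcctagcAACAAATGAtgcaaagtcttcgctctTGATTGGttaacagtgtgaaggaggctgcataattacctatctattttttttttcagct
TGATTGG was present in 6 of the 7 genes with a window, against 7.23% of all 32851 windows of the same length. AACNNATGA was present in 4 of the 7 (H2-Eb1, H2-DMb1, H2-DMb2 and H2-Ob), against 2.49% of all windows. Both motifs together were found in those 4 genes and in 0.265% of all windows, which is 87 windows. The X form ended 19 bases before the Y motif in H2-Eb1, 20 in H2-DMb1, 20 in H2-DMb2 and 17 in H2-Ob. In H2-Aa the palindrome, held by 1.55% of all windows, ended 16 bases before it. No motif overlapped another, and a match is a description of the letters, not of a bound site. H2-DMa had none of the 3 motifs in its windows. These lie before RefSeq starts at 34122832 and 34125518, upstream of the counted gene span, which begins at 34135182. The bases just before that span were not searched. The printed window of H2-DMb2 lies within its counted span, which begins at 34143307. Those of H2-DMb1 and H2-Oa lie partly within theirs, which begin at 34153072 and 34092340. The windows of H2-Aa and H2-Ob overlap their counted spans only at the edge.

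The libraries held 19380262 to 35130912 counts at 2 months. At 4 months depth was 19163673 to 24900764 counts, and at 6 months it was 37639960 to 58676098 counts. At 6 months mitochondrial genes took 31.75 to 59.31% of the counts, against 7.72 to 16.32% over the earlier times. Time cannot be told apart there from these and any other differences between the libraries. Transcripts of 8 smooth muscle genes (Acta2, Myh11 and others) were present in every group, but not evenly. Their summed level was 825 to 1639 CPM (counts scaled to the library total, with TMM factors) in Ang II aortas and 3256 to 6074 CPM in sham aortas at 2 months. It was 540 to 896 CPM in Ang II and 696 to 2443 CPM in sham aortas at 4 months, and 1185 to 2216 CPM in Ang II and 804 to 1118 CPM in sham aortas at 6 months. Summed airway epithelium transcripts (8 genes) ran from 37.8 to 8671 CPM, and those of fat cells (6 genes) from 3336 to 15516 CPM.

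All 10 MHC class II genes passed the low-count filter in every comparison, with 6 counts in the lowest library (H2-Oa) and 42761 in the highest (Cd74). Of the members, 8 lie on chromosome 17 between positions 34092340 and 34316199 (mm10), Cd74 lies on chromosome 18 and Ciita on chromosome 16. Per kilobase of exon, Cd74 had the highest level in 24 of 24 libraries, from 97.8 to 713 CPM per kb. H2-Eb1 followed and was above H2-Ab1 in 24 of 24 libraries, and H2-Ab1 was above H2-Aa in 23 of 24. H2-Aa in turn was above the 6 remaining genes in every library. At the low end Ciita had the lowest level per kb in 13 of 24 libraries and H2-Oa in 11. In Ang II aortas at 4 months Cd74 averaged 405 ± 221 CPM per kb, H2-Eb1 187 ± 79.9, H2-Ab1 122 ± 56.5 and H2-Aa 78.4 ± 36.6 (SD, n = 4 each). The SDs of neighbouring genes in this order overlapped, although the order itself was the same in 23 of 24 libraries. The order of the chain genes follows the exon lengths used, 1459 bp for H2-Eb1, 2418 bp for H2-Ab1 and 3798 bp for H2-Aa. Before division by length their means in that group were 273, 294 and 298 CPM, close together and in the reverse order. H2-DMa and H2-DMb1, at 11.1 ± 5.6 and 10.9 ± 2.54 CPM per kb in that group (SD, n = 4), did not differ beyond their spread.

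**Figure D1:**
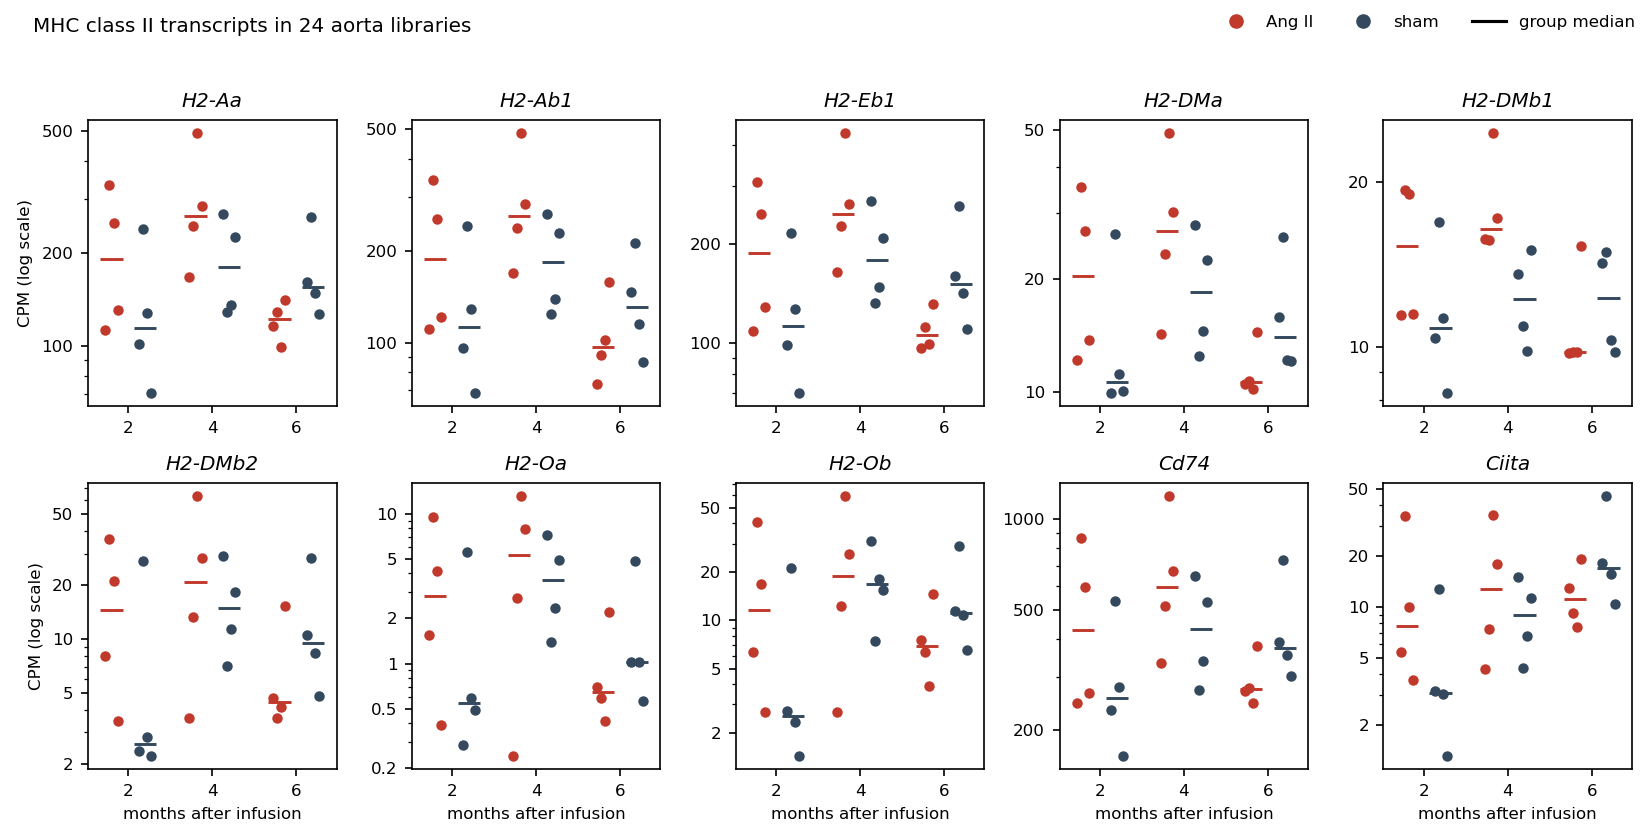
CPM (log axis) of each MHC class II gene in the 24 libraries, with Ang II left of sham at 2, 4 and 6 months after infusion; points are libraries and bars are group medians. Within most groups 1 or 2 libraries stand above the rest for nearly every gene, and the groups of a time overlap except for H2-DMb1 at 4 months.

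The classical chain genes H2-Aa, H2-Ab1 and H2-Eb1 encode the surface molecules themselves. At 2 months H2-Aa had 112, 333, 252 and 131 CPM in Ang II aortas, against 101, 240, 128 and 70.3 CPM in sham aortas. Ang II libraries 2 and 3 and sham library 2 were high, and the other Ang II libraries lay within the sham range. At 4 months H2-Aa had 167, 246, 493 and 284 CPM in Ang II aortas, against 268, 129, 136 and 226 CPM in sham aortas. Here Ang II library 3 stood highest of all 24, and the groups overlapped. At 6 months the values were 116, 129, 99.2 and 141 CPM in Ang II aortas, against 162, 262, 149 and 127 CPM in sham aortas, so sham library 2 was high and the groups overlapped at their edges. The fitted log2 fold changes of H2-Aa, Ang II over sham, were 0.64 ± 0.46 (SE) at 2 months, 0.67 ± 0.35 at 4 months and -0.52 ± 0.24 at 6 months. None passed the quasi-likelihood F test of edgeR after adjustment over all genes (Benjamini-Hochberg adjusted p = 0.749, 0.391 and 1.0). The same log2 difference was 0.65, 0.66 and -0.38 for H2-Ab1 and 0.65, 0.55 and -0.61 for H2-Eb1, in order of time. Of the members only H2-Eb1 had an unadjusted p under 0.05 at 6 months, where 5.05% of all genes did, and its edgeR adjusted p was 0.960.

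H2-Aa and H2-Ab1 encode the partners of the I-A molecule, and their transcripts were held in a narrow ratio at the early times. H2-Aa over H2-Ab1 was 0.973 to 1.07 in CPM over the 16 libraries at 2 and 4 months, while each gene alone varied 7.01-fold and 7.11-fold between the lowest and the highest of them. At 6 months the ratio spread from 0.890 to 1.59, in Ang II libraries (0.890 to 1.59) as in sham libraries (1.10 to 1.47). The part of depth or mitochondrial share in that wider spread was not tested. H2-Eb1 encodes the beta chain of the I-E molecule. The alpha chain locus, listed as H2-Ea-ps, was at or near 0 everywhere, with 0.101 CPM as its highest library.

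Cd74, which encodes the invariant chain, moved with the classical chains. At 2 months Cd74 had 245, 864, 593 and 265 CPM in Ang II aortas, against 232, 532, 276 and 164 CPM in sham aortas. At 4 months it had 333, 514, 1193 and 672 CPM in Ang II aortas, against 644, 271, 337 and 528 CPM in sham aortas. At 6 months it had 269, 276, 245 and 380 CPM in Ang II aortas, against 391, 731, 354 and 301 CPM in sham aortas. The same libraries were high as for H2-Aa, and the groups overlapped at every time. Its log2 fold changes were 0.73 ± 0.50, 0.62 ± 0.40 and -0.60 ± 0.30 (SE) at 2, 4 and 6 months, with edgeR adjusted p = 0.723, 0.478 and 1.0. Cd74 over H2-Aa stayed between 1.99 and 2.79 in CPM over all 24 libraries.

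H2-DM is a dimer of an alpha chain (H2-DMa) and a beta chain encoded by either of 2 near-identical genes, H2-DMb1 and H2-DMb2. Of the 50-base words in the transcripts of H2-DMb1, 22.7% also occur in another gene, most in H2-DMb2, and 24.8% of those of H2-DMb2 do, most in H2-DMb1. No source used here says how such reads were split in the counting, so both counts are uncertain to that extent. H2-DMb1 was the one member whose groups did not overlap in any within-time comparison. At 4 months H2-DMb1 had 15.7, 15.7, 24.6 and 17.2 CPM in Ang II aortas, against 13.6, 10.9, 9.84 and 15.01 CPM in sham aortas. Each Ang II library was above each sham library, the closest pair being 15.66 CPM in an Ang II and 15.01 CPM in a sham library. Over all genes tested at 4 months, 10.7% had groups that did not overlap, so 1 of 10 members is near that background. The log2 fold change of H2-DMb1 was 0.59 ± 0.18 (SE, 95% interval 0.17 to 1.003), with edgeR adjusted p = 0.174. It was the 1 member with an unadjusted p under 0.05 at 4 months, where 15.5% of all genes had one. With each library left out in turn it was 0.43 to 0.69, and the adjusted p 0.108 to 0.366. In the authors' deposited table at 4 months H2-DMb1 also had the lowest adjusted p of the 10 genes (0.0798).

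At 2 months H2-DMb1 had 11.4, 19.3, 19.0 and 11.5 CPM in Ang II aortas, against 10.4, 16.9, 11.3 and 8.23 CPM in sham aortas, which overlapped. At 6 months it had 9.74, 9.79, 9.79 and 15.3 CPM in Ang II aortas, against 14.2, 14.9, 10.3 and 9.79 CPM in sham aortas. Its log2 fold changes were 0.41 ± 0.27 (SE) at 2 months and -0.13 ± 0.22 at 6 months. H2-DMb1 was also the steadiest member, with a 2.99-fold range over the 16 early libraries. H2-DMb2, its near copy, ranged 28.6-fold over the same libraries, from 2.21 to 63.3 CPM. The ratio of H2-DMb2 to H2-DMb1 in CPM therefore ran from 0.227 to 2.57. H2-DMa, whose product pairs with both, ranged 4.97-fold. For H2-DMb2 the log2 fold changes were 1.001 ± 0.997 at 2 months, 0.73 ± 0.75 at 4 months and -0.91 ± 0.65 at 6 months (SE), and for H2-DMa 0.64 ± 0.44, 0.62 ± 0.38 and -0.52 ± 0.27.

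The H2-DO genes varied most. H2-Ob, the beta chain gene, had 6.39, 40.7, 16.9 and 2.68 CPM in Ang II aortas at 2 months, against 2.71, 21.1, 2.34 and 1.43 CPM in sham aortas. At 4 months it had 2.70, 12.2, 59.5 and 25.8 CPM in Ang II aortas, against 31.0, 7.41, 17.95 and 15.5 CPM in sham aortas. At 6 months it had 7.58, 6.34, 3.92 and 14.7 CPM in Ang II aortas, against 11.4, 28.8, 10.7 and 6.57 CPM in sham aortas. The groups overlapped at each time, and 1 library often carried most of a group's sum. Over the 16 early libraries H2-Ob spanned 41.5-fold and H2-Oa, the alpha chain gene, 54.7-fold. The log2 fold changes of H2-Ob were 1.29 ± 1.04, 0.49 ± 0.77 and -0.82 ± 0.53 (SE) at 2, 4 and 6 months. Those of H2-Oa were 1.18 ± 1.13, 0.61 ± 0.91 and -1.01 ± 0.79 (SE). At 4 months, without Ang II library 3, the values were -0.37 for H2-Ob, -0.09 for H2-Oa and -0.10 for H2-DMb2, so the sign of these 3 genes rested on that library. At 6 months, without sham library 2, H2-Oa was at 0.11.

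Ciita, the regulator of the set, had the largest fitted change at 2 months. It had 5.39, 34.6, 9.94 and 3.70 CPM in Ang II aortas at 2 months, against 3.18, 12.8, 3.04 and 1.31 CPM in sham aortas. All Ang II libraries were above the 3 lower sham libraries, and sham library 2 was above 3 of the Ang II libraries. At 4 months Ciita had 4.31, 7.42, 34.9 and 17.9 CPM in Ang II aortas, against 14.96, 4.34, 6.73 and 11.3 CPM in sham aortas. At 6 months it had 12.9, 9.20, 7.62 and 19.2 CPM in Ang II aortas, against 18.1, 45.4, 15.7 and 10.5 CPM in sham aortas. The log2 fold changes were 1.43 ± 0.87, 0.80 ± 0.63 and -0.87 ± 0.48 (SE), with edgeR adjusted p = 0.669, 0.557 and 1.0. Relative to H2-Aa, Ciita had a median of 0.108 in CPM over the 8 libraries at 6 months (0.0715 to 0.173), against 0.0437 over the 16 earlier libraries (0.0186 to 0.104).

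Across the 10 genes, Ang II minus sham was positive for 10 of 10 at both early times and negative for 10 of 10 at 6 months, and no member passed the test at any time. In simulated data the fit called 1.49% of genes changed 1.5-fold at 2 months, 10.4% at 4 months and 2.99% at 6 months. Of genes changed 2-fold it called 44.8, 40.3 and 16.4%, so a gene not called is not shown to be unchanged. The members' median log2 fold change was 0.69 at 2 months, where the median of all 16421 genes tested was 0.009 and edgeR called 1.81% of them at an adjusted p under 0.05. It was 0.62 at 4 months, where the median of all 16127 genes was 0.044 and 0.707% were called. It was -0.60 at 6 months, where the median of all 19343 genes was -0.025 and none was called by edgeR (976 had an unadjusted p under 0.05, and DESeq2 called 63). At 2 months 0 of 10 members had groups that did not overlap, against 7.93% of all genes, and at 6 months 0 of 10, against 2.99%. These counts are not 10 separate results, since the members share the libraries that were high: over the 16 early libraries the 45 pairs of members had Pearson r from 0.70 to 0.999, with a median of 0.94. The medians leaned on single libraries. At 2 months the median was 0.30 without Ang II library 2 and 1.14 without sham library 2, at 4 months it was 0.24 without Ang II library 3, and at 6 months it was -0.21 without sham library 2. The median of the smooth muscle markers had the opposite sign: 7 of 8 fell in Ang II aortas at 2 months (edgeR adjusted p under 0.05; list median -2.03), none passed at 4 months (median -0.65) and none at 6 months (median 0.37). Their part in the members' values was not tested. In whole tissue, fewer or more cells of a type and less or more RNA per cell cannot be told apart.

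**Figure D2:**
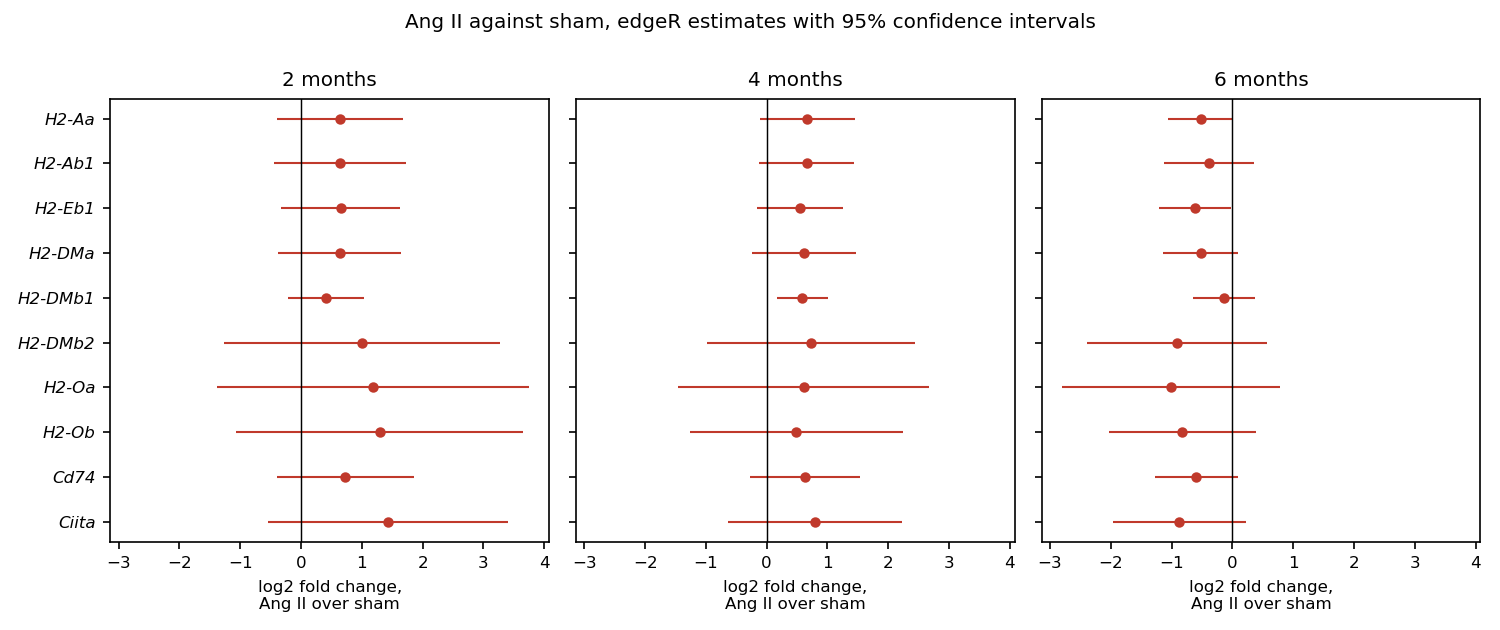
Log2 fold change of each MHC class II gene, Ang II over sham, at 2, 4 and 6 months (points) with 95% confidence intervals (bars). Points lie above 0 at 2 and 4 months and below 0 at 6 months, and nearly all intervals include 0; those of H2-DMb1 at 4 months (0.17 to 1.003) and H2-Eb1 at 6 months (-1.20 to -0.02) do not.

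Averaging the Ang II effect over 2 and 4 months used 16 libraries. The 10 log2 fold changes lay between 0.49 (H2-DMb1) and 1.11 (Ciita), with a median of 0.66 against 0.022 for all genes. No member was called, against 1.99% of 17153 genes. H2-DMb1 had the lowest edgeR p of them (adjusted p = 0.167), with a log2 fold change of 0.49 ± 0.17 (SE). For H2-Aa the value was 0.65 ± 0.31 and the 95% interval -0.01 to 1.30. The median was 0.46 without Ang II library 3 at 4 months and 0.46 without Ang II library 2 at 2 months, and each member stayed positive with any 1 library left out.

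Whether the effect changed with time was tested as a difference of differences. Between 4 and 2 months the members' differences ran from -0.80 to 0.17 (log2), and none was called; over all 17153 genes edgeR called 0 as well (1813 had an unadjusted p under 0.05, and DESeq2 called 179). At 6 months the effect was lower than its average at 2 and 4 months for 10 of 10 members, by a median difference of -1.22 against -0.026 for all genes. Here 5 members (H2-Aa, H2-Eb1, H2-DMa, Cd74 and Ciita) had an unadjusted p under 0.05, a share to set beside 11.8% of all genes, and none passed after adjustment, where 0.328% of 19218 genes did. The lowest was H2-Eb1, at -1.19 ± 0.46 (SE; edgeR adjusted p = 0.316). Without sham library 2 at 6 months the median difference was -0.90. In sham aortas alone, 4 months against 2 months, the differences were positive for 10 of 10 members (median 0.53, 0.045 to 1.32) and 0 were called, against 0.00619% of 16144 genes (DESeq2 called 852). No group pair failed to overlap among the members there, against 9.5% of all genes. In the same comparison the log2 difference was positive for 11 of 12 B cell markers (median 1.16) and 9 of 9 tested T cell markers (median 0.99), and negative for 7 of 8 smooth muscle markers (median -2.03). None of these markers was called, and their part in the result was not tested. These comparisons share libraries with the within-time ones.

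Markers of cells that make class II were set beside the members. Summed transcripts of 12 B cell genes (Ms4a1, Cd79a and others) were 196 to 607 CPM in Ang II aortas and 129 to 356 CPM in sham aortas at 2 months. They were 149 to 812 CPM in Ang II aortas and 199 to 425 CPM in sham aortas at 4 months, and 127 to 263 CPM in Ang II aortas and 182 to 470 CPM in sham aortas at 6 months. None of the 12 was at 0 in any group. Like the members, 12 of 12 were higher in Ang II aortas at 2 and 4 months and 12 of 12 lower at 6 months by sign, and none was called. Macrophage markers (14 genes) summed to 420 to 516 CPM in Ang II aortas and 267 to 421 CPM in sham aortas at 2 months, and to 448 to 574 CPM and 212 to 420 CPM at 4 months. At 6 months they summed to 433 to 573 CPM in Ang II aortas and 470 to 663 CPM in sham aortas. Some macrophage genes passed edgeR's test. At 2 months 4 of 14 rose (Adgre1, Ms4a7, Trem2 and Cd68) and 1 fell (Mertk), and at 4 months 3 rose (Cd68, Ms4a7 and Trem2). Cd68, which encodes a lysosomal glycoprotein of phagocytes, rose by 1.76 ± 0.14 (log2, SE; adjusted p = 0.0134) at 4 months. Averaged over both times 7 of 14 macrophage genes rose, and of 12 dendritic cell genes Clec10a rose by 0.98 and Cd209a by 0.67.

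Over the 16 libraries at 2 and 4 months, each member was correlated with the summed level of each of 14 marker lists, which makes 140 relations, tested by permutation (100000 resamples, two-sided) with Benjamini-Hochberg adjustment over the 140. The permutations ignored treatment and time, and those within a time ignored treatment, so differences between groups also enter these p-values. With the B cell sum Pearson r was 0.77 to 0.95 and Spearman rho 0.71 to 0.97, and 10 of 10 members passed (adjusted p of 0.0019 at most). Without the 2 libraries farthest from the median of the B cell sum r was 0.60 to 0.95. Within 2 months r was 0.85 to 0.95, and within 4 months 0.65 to 0.98 (8 libraries each). The dendritic cell sum (12 genes) gave r of 0.81 to 0.94 with rho of 0.80 to 0.92, and all 10 passed (adjusted p of 0.00057 at most). Its r was 0.73 to 0.90 without the 2 farthest libraries, 0.89 to 0.98 within 2 months and 0.57 to 0.96 within 4 months. T cell, monocyte and plasma cell sums also passed for 10 of 10 members, with r of 0.74 to 0.90, 0.75 to 0.98 and 0.67 to 0.80. Within 4 months 9 of 10 members passed for the B cell, 6 for the dendritic cell and 6 for the monocyte sum. Only 1 passed for the T cell and 1 for the plasma cell sum there. Within 2 months 10 of 10 passed for each of these sums but the plasma cell sum, where 3 did. Among the 5 monocyte genes, Plac8 is expressed by lymphocytes too. The macrophage sum gave r of 0.13 to 0.52, and none of 10 passed for r (adjusted p of 0.089 at least). Its rho was 0.21 to 0.64, and 1 of 10 passed for rho (H2-DMb1, adjusted p = 0.023 by permutation). Within 2 months its r was 0.19 to 0.29, and within 4 months 0.07 to 0.82 (1 of 10 passed, H2-DMb1). At 6 months, outside those 16 libraries, the macrophage sum had r of 0.64 to 0.85 (1 of 10 passed, H2-DMa), the B cell sum 0.80 to 0.99 (10 of 10) and the dendritic cell sum 0.66 to 0.99 (8 of 10), by exact permutation tests over 8 libraries. Since the libraries share their cell mixture, the lists are not independent of each other.

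**Figure D3:**
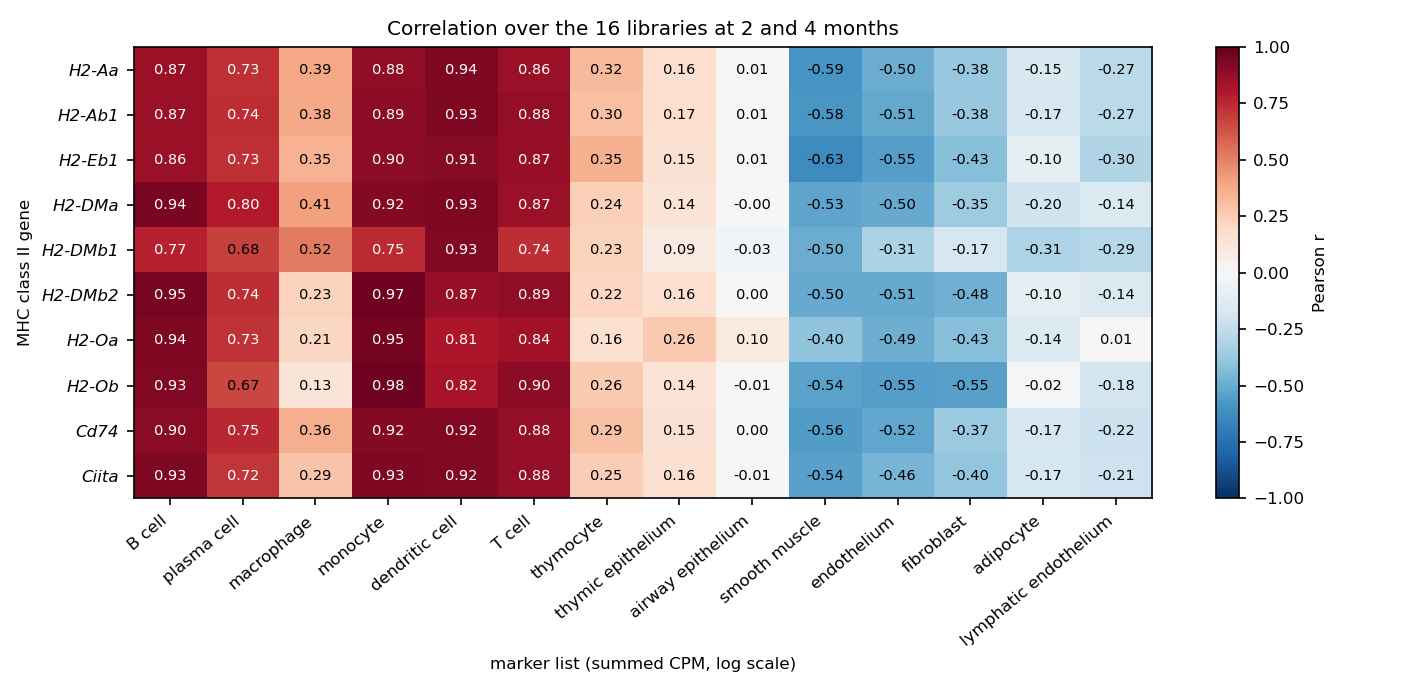
Pearson r over the 16 libraries at 2 and 4 months between each MHC class II gene (rows) and the summed level of each marker list (columns). The B cell, monocyte, dendritic cell and T cell columns are high for every gene (0.74 to 0.98), and the macrophage column is lower (0.13 to 0.52).

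H2-Ob and H2-DMb1 had the lowest and the highest r with the macrophage sum. H2-Ob had r of 0.93 with B cell markers (rho 0.95, adjusted p = 5e-05, with the smallest raw p that these permutations can give, 1e-05), 0.82 with dendritic cell markers and 0.13 with macrophage markers. H2-DMb1 had r of 0.77 with B cell markers (rho 0.71, adjusted p = 0.0019 by permutation), 0.93 with dendritic cell markers and 0.52 with macrophage markers (adjusted p = 0.089 by permutation). Within 4 months H2-DMb1 had r of 0.65 with the B cell sum and 0.82 with the macrophage sum (exact permutation test, adjusted p = 0.22 and 0.048), but within 2 months 0.85 and 0.21. Whether such correlations differ between members was not tested. As a single example, Ang II library 1 at 4 months had the lowest H2-Oa of all 24 libraries (0.24 CPM). It had 2.70 CPM of H2-Ob, with a B cell sum of 149 CPM. Its 167 CPM of H2-Aa was also the lowest of its group, and its 15.7 CPM of H2-DMb1 was close to the lowest (15.66 CPM). Smooth muscle markers ran the other way, with r from -0.63 to -0.40, and 3 of 10 members passed. Without the 2 farthest libraries those r were -0.36 to -0.11, so that relation rests on them.

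**Figure D4:**
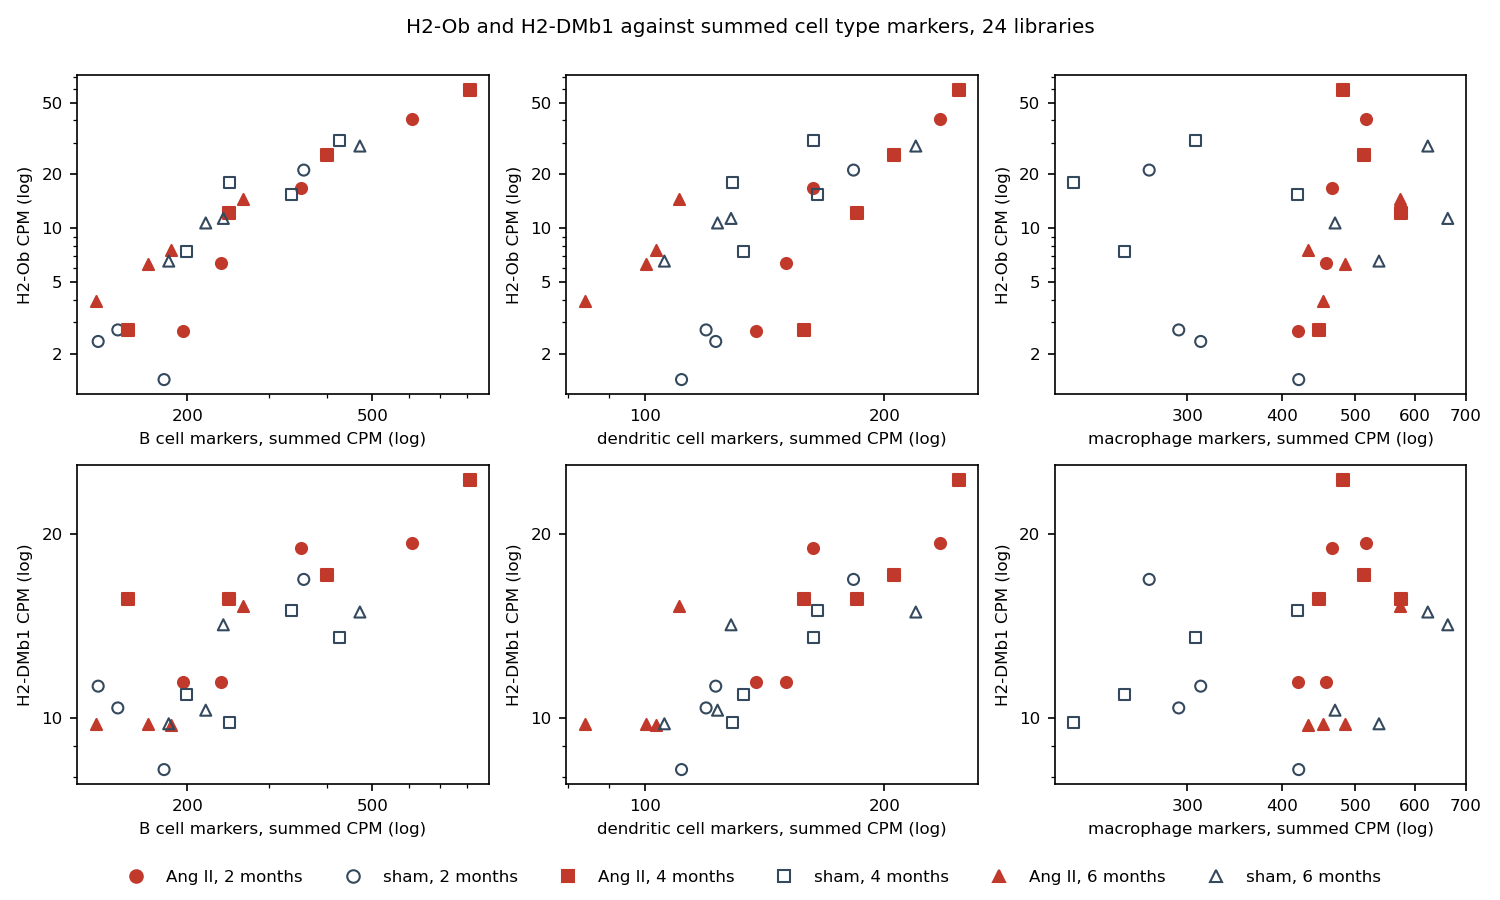
CPM of H2-Ob (top) and H2-DMb1 (bottom) against summed CPM of B cell, dendritic cell and macrophage markers in the 24 libraries, all axes log; filled red is Ang II, open blue is sham, and shapes are months. H2-Ob had r of 0.94, 0.94 and 0.99 with the B cell sum within 2, 4 and 6 months, and r of 0.25, 0.07 and 0.68 with the macrophage sum (8 libraries each).

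When the mean log2 level of the B cell list was put in the fit as a covariate, the log2 fold changes of the members at 2 months lay between -0.48 and 0.03, against 0.41 to 1.43 without it. At 4 months the result split by gene. With the covariate H2-Aa was at 0.61, H2-Ab1 at 0.60, H2-Eb1 at 0.50, H2-DMa at 0.52, H2-DMb1 at 0.57 and Cd74 at 0.53, each within 0.1 of its value without it. Their edgeR adjusted p with the covariate lay between 0.069 and 0.098, so none passed. Ciita was at 0.49 and H2-DMb2 at 0.21, while H2-Oa and H2-Ob were at -0.11 and -0.14. At 6 months the values lay between -0.21 and 0.33, against -1.01 to -0.13 without the covariate. This is a measured shift of the estimates, and it does not say which cells made the RNA.

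**Figure D5:**
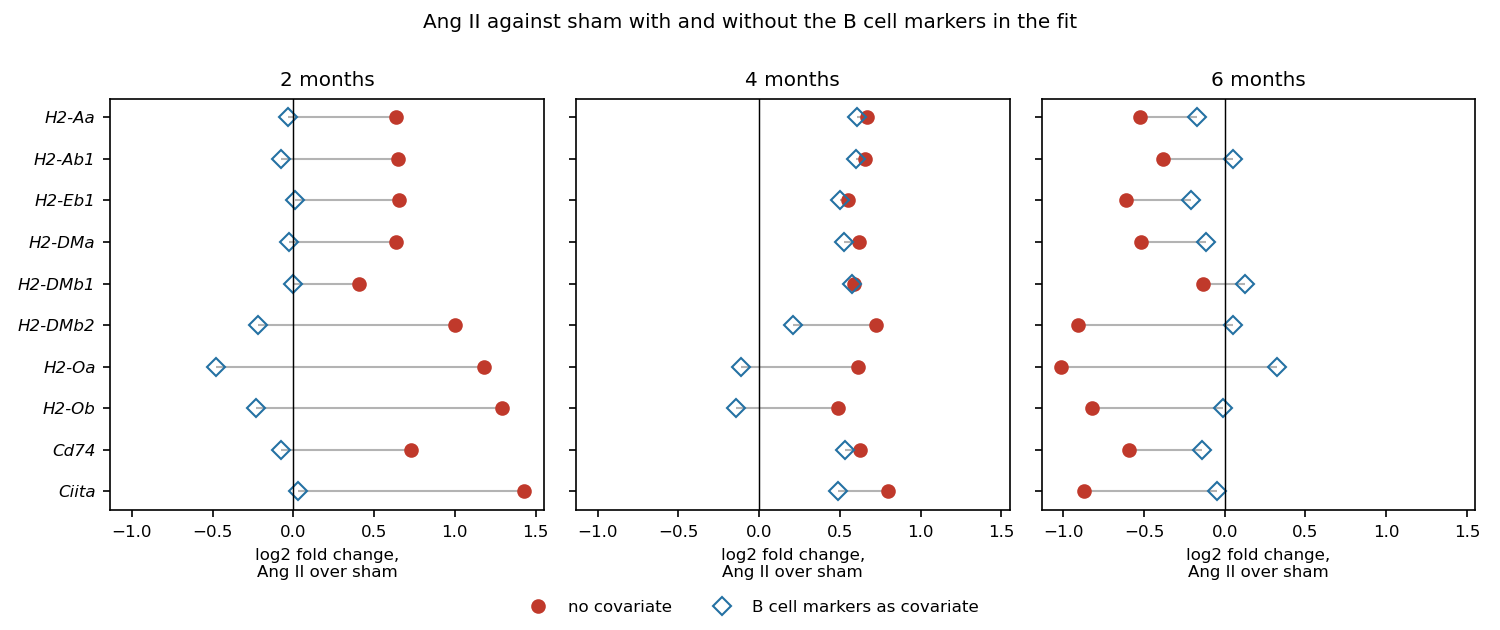
Log2 fold change of each MHC class II gene, Ang II over sham, without (circles) and with (diamonds) the B cell marker level as a covariate. With it values lie between -0.48 and 0.03 at 2 months and between -0.21 and 0.33 at 6 months, whereas at 4 months the classical chains, Cd74, H2-DMa and H2-DMb1 keep 0.50 to 0.61.

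Other genes of the class II pathway were counted by role. Of 7 promoter factors that dock Ciita (Rfx5, Rfxap, Rfxank, Nfya, Nfyb, Nfyc and Creb1), none was called at any time, and their median log2 fold changes were -0.07, 0.08 and 0.03 at 2, 4 and 6 months. Of 8 measured genes of the interferon gamma route that induces Ciita (Ifngr1, Jak1, Irf1 and others), none was called, with medians of 0.08, 0.09 and -0.05. Among 5 measured regulators of class II in myeloid and B cells, Irf4, a transcription factor of B cells, plasma cells and dendritic cells, rose at 2 months by 2.33 ± 0.44 (log2, SE; edgeR adjusted p = 0.0346). Among 9 proteases and reductases of the endosomal route none was called at a single time, and averaged over 2 and 4 months 2 rose. These were Ctss, the protease that cuts the invariant chain, by 1.07 ± 0.23 (log2, SE; edgeR adjusted p = 0.0293), and Lgmn, an asparagine-specific endopeptidase, by 0.27 ± 0.06 (edgeR adjusted p = 0.0431). None of 3 surface turnover genes was called in any comparison, nor any tested costimulation gene (5 or 6 of 6, by comparison) or receptor gene of T cells (5 or 7 of 7). H2-Eb2, a neighbouring beta chain gene, had a mean of 4.63 CPM in Ang II aortas and 1.70 CPM in sham aortas at 2 months and was not called.

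The class I pathway, which shows peptides from inside the cell, served as a neighbouring comparison. By sign 14 of 16 class I genes were higher in Ang II aortas at 2 months, 16 of 16 at 4 months and 0 of 16 at 6 months, with medians of 0.33, 0.33 and -0.15. None was called at a single time. Averaged over 2 and 4 months Psmb10, a subunit of the immunoproteasome, rose by 0.35 ± 0.07 and Tap2, part of the peptide transporter, by 0.31 ± 0.07 (log2, SE; edgeR adjusted p = 0.0269 and 0.0319), whereas no class II gene was called there. The difference between the lists was not tested.

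The 5 genes outside all lists whose log2 CPM over the 16 early libraries was most like the mean standardised profile of the 10 members were Rnase6, Myo1g, Serpina3g, Syk and Cd37. Their Pearson r with it was 0.979, 0.979, 0.979, 0.978 and 0.977 among 17434 genes compared. Rnase6 encodes a secreted ribonuclease, Myo1g a myosin of blood cells, Syk a tyrosine kinase of immune receptors and Cd37 a tetraspanin of leukocytes. The ranks above the fifth of them also held 6 genes of the lists and 1 predicted gene.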

How the data were processed

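Messenger RNA libraries of 24 mouse aortic homogenates (6 groups of 4) were analysed from the deposited files. Per the submitters' processing notes the reads passed through cutadapt and FastQC, STAR and featureCounts, with build mm10, and DESeq2 was used. Versions, annotation release and strand setting were not given in the sources used here. Reads of overlapping antisense genes could therefore not be told apart. The authors deposited whole-number read counts per gene. Their deposited comparison tables hold, per the file headers, a log2 fold change with its standard error, a test score, a p-value and adjusted p-value, a fold change as a ratio, and a mean signal per gene; only the p-values are quoted here. Gene symbols came from those tables for 23514 genes and from the reference annotation for 14015; 77 genes had none. Each of the 24 count columns named its sample, and no pair of libraries within a group was a duplicate.

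Counts were tested in R 4.3.3 with edgeR 4.0.16 (filterByExpr with minimum count 10 and minimum total 15, TMM, glmQLFit and glmQLFTest, Benjamini-Hochberg over all genes, threshold 0.05), within each time and, for averages and differences of effects, over 16 or 24 libraries. The SE is the log2 fold change over the square root of F. CPM of single libraries were TMM-scaled over all 24, and CPM per kb used exon lengths of the reference annotation (GENCODE M21) within the files' gene spans. Correlations were computed in Python 3.11.15. Those with marker lists used the log2 of CPM plus 0.1 for members and the log2 of marker sums. Those between members, and of other genes with the members' mean profile, used log2 CPM with prior count 2. The fits were tested on simulated data. Other settings were DESeq2 1.42.0, its size factors in edgeR, no filter, all 24 libraries in 1 fit, a B cell covariate, replicate numbers as a block, and each library left out. The text names all 10 members, up to 3 called genes of each other list (for macrophages at 2 months all 5, the last 2 named after their values were seen), and the 5 genes most like the members' profile. Members, lists and tests were chosen with earlier results of these data known. Figures were drawn with matplotlib 3.10.9.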

Additional observations from a re-analysis of the deposited data

Results flagged for a closer look

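In 11 of 60 groups of 4 libraries (10 genes in 6 groups), 1 library lay so far from the other 3 that its gap, relative to the group's range, was above Dixon's 95% critical value. With normally distributed values chance alone flags about 1 in 20 such groups. The gap was taken on CPM without a log, so that rate may not hold here. The genes also share their libraries, so the flags are not separate events. Ang II replicate 4 at 6 months was above the other Ang II libraries for H2-DMa (14.4 CPM), H2-DMb1 (15.25 CPM), H2-DMb2 (15.3 CPM) and H2-Oa (2.21 CPM). Its counts were 196 for H2-DMa and 207 for H2-DMb1, against 348 to 422 and 318 to 405 in those other libraries. Its total was 37639960 counts, against 40964895 to 58676098 in the others. Relative to plain totals it was the lowest of its group for H2-DMa and H2-DMb1, so its place above the group there rests on the TMM factors. For H2-DMb2 (208) and H2-Oa (30) its counts were the highest of the group. Ang II replicate 3 at 4 months stood above its group for H2-DMb1 (24.6 CPM). Sham replicate 2 at 2 months stood above the other sham libraries for H2-DMa (26.4 CPM), H2-DMb2 (27.5 CPM), H2-Oa (5.59 CPM), H2-Ob (21.1 CPM) and Ciita (12.8 CPM). Sham replicate 2 at 6 months did so for H2-Oa (4.85 CPM).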

How the results depend on the processing

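No MHC class II gene was called in any of the 7 comparisons under DESeq2, its size factors in edgeR, no filter, the B cell covariate or with any 1 library left out, nor in the 6 of them that were also fitted with all 24 libraries at once (the seventh, the effect at 6 months against its earlier average, uses all 24 in any case). Same-numbered libraries deviated together in some pairs only (r from -0.30 to 0.50), so this check does not settle whether the numbers mark pairs. With the replicate block 1 member, Ciita at 2 months (1.37, edgeR adjusted p = 0.0349), was called. Counts of all called genes changed more. At 2 months the 297 became 102 with the covariate and 727 in DESeq2 (78 to 255 with 1 library left out). At 4 months the 114 became 227 with the covariate, 993 in DESeq2, 11 in the fit of 24, 40 without the filter and 0 with the replicate block (0 to 674 with 1 left out). At 6 months the 0 became 63 in DESeq2 and stayed 0 with 1 left out. For the average over 2 and 4 months the 342 became 193 with the covariate, 897 in DESeq2, 218 without the filter and 222 with the block (118 to 377 with 1 left out). For the effect at 4 against 2 months the 0 became 3 with the covariate, 179 in DESeq2, 1 with its size factors and 1 in the fit of 24 (0 to 128). For the effect at 6 months against its earlier average the 63 became 25, 374, 34 without the filter and 36 with the block (10 to 82). For sham at 4 against 2 months the 1 became 0 with the covariate, 852 in DESeq2, 4 without the filter, 453 in the fit of 24 and 140 with the block (0 to 641). The B cell covariate turned the sign of log2 fold changes at 2 months for H2-Aa (-0.034), H2-Ab1 (-0.075), H2-DMa (-0.026), H2-DMb1 (-0.00071), H2-DMb2 (-0.22), H2-Oa (-0.48), H2-Ob (-0.23) and Cd74 (-0.077), and at 4 months for H2-Oa (-0.11) and H2-Ob (-0.14). At 6 months it did so for H2-Ab1 (0.054), H2-DMb1 (0.12), H2-DMb2 (0.050) and H2-Oa (0.33), for the early average for H2-Oa (-0.34) and H2-Ob (-0.18), and for the 6-month difference of effects for H2-Oa (0.61) and H2-Ob (0.22). With 1 library left out, H2-DMb2 (-0.10 to 1.14), H2-Oa (-0.091 to 1.06) and H2-Ob (-0.37 to 0.88) turned at 4 months and H2-Oa (-1.73 to 0.11) at 6 months. Of the 140 correlations 53 passed over 16 libraries, 43 within 2 months, 24 within 4 months and 51 with plain library totals. The cause of these shifts was not tested. H2-Oa had as few as 6 counts in a library, which limits its precision.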
